A study of Homo sapiens with 12 samples.

Results

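The segment described here is a stretch of 4 Mb on the long arm of human chromosome 1, at bands 1q32 to 1q41, between 211.5 and 215.5 Mb of the GRCh38 build. Its members are all peaks of 12 ATAC-seq peak lists that lie inside these bounds, joined into 1 region wherever they shared at least 1 bp. This gave 2379 merged regions of 2361798 in the genome, from 5091 peaks of 4226167. The segment was chosen by the local background under its peaks, which is raised in KYSE150, so its level in KYSE150, and the level of every quantity built from background or height there, is compared with the rest of the genome and with KYSE510 as a description without a test. The choice did not use the difference between silenced and control libraries, and tests are given for that contrast. The lists come from KYSE150 and KYSE510, established cell lines of human oesophageal squamous cell carcinoma grown in RPMI-1640 medium with serum. Each line has 3 libraries of control cells and 3 of cells with HCP5, a long non-coding RNA gene, silenced, which gives 4 groups of 3. The way HCP5 was silenced and the kind of control are not given in the sources used here, and the files hold no measure of RNA, so the silencing itself was not checked. Nothing in the labels says that the 3 libraries of a group came from separate cultures, so p-values measure the spread between these libraries, which may be technical.

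ATAC-seq inserts sequencing adapters into DNA that nucleosomes leave free, so that promoters and enhancers in use appear as peaks of fragments. A peak caller such as MACS2 sets the height of each peak against a local background, which never falls below a floor shared by the whole library. The segment holds genes of several kinds. ATF3 and BATF3 are bZIP transcription factors of the family that binds AP-1 and CRE sites, PROX1 is a homeobox factor of lymphatic endothelium, liver and other tissues, and SMYD2 is a lysine methyltransferase. PTPN14 is a phosphatase that holds back the YAP co-activator of TEAD factors. NEK2, DTL, CENPF and NSL1 act in cell division, as a centrosome kinase, a substrate receptor of the CUL4 ubiquitin ligase, a kinetochore protein and a subunit of the MIS12 kinetochore complex.

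The promoters of 5 of these genes are shown because the segment contains a step between them: peaks at NEK2 and DTL were lower in KYSE150 than in KYSE510, and peaks at PPP2R5A, PTPN14 and CENPF were higher. Each sequence is the 250 bases before the gene start in RefSeq (GRCh38.p14), written 5′ to 3′ on the strand of the gene. Capitals mark letters that match a searched motif on either strand. The motifs were CCAAT, an NF-Y box common in cell cycle promoters, TTCCCGC or TTCGCGC for E2F, GGAATG for TEAD, TTTGAA or TTCGAA for the cell cycle homology region (CHR), TGAGTCA or TGACTCA for AP-1, TGACGTCA for CRE and its shorter form TGACG, which lies within TGACGTCA. The NEK2 promoter lies at chr1:211675622-211675871 on the minus strand. The DTL promoter lies at chr1:212035498-212035747 on the plus strand, and that of PPP2R5A at chr1:212285160-212285409 on the plus strand. The promoter of PTPN14 lies at chr1:214551603-214551852 on the minus strand, and that of CENPF at chr1:214602945-214603194 on the plus strand.
NEK2: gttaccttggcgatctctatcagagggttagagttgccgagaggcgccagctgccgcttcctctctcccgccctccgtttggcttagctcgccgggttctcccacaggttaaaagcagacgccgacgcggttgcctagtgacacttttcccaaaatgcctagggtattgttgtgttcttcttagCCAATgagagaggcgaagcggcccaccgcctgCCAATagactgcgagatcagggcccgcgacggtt
DTL: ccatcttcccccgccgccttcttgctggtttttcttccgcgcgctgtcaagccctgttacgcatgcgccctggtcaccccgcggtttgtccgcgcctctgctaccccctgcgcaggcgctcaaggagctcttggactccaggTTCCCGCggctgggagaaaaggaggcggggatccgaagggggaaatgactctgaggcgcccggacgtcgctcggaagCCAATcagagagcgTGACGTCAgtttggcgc
PPP2R5A: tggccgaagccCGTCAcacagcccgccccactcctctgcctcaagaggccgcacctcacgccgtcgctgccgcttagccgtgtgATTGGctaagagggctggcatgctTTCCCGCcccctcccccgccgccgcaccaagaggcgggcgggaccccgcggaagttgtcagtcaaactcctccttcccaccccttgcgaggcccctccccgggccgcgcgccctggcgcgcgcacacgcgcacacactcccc
PTPN14: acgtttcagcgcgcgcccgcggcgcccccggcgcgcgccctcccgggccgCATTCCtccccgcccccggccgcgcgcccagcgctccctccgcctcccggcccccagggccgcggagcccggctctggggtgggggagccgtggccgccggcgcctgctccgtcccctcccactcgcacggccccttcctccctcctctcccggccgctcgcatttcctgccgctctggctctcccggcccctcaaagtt
CENPF: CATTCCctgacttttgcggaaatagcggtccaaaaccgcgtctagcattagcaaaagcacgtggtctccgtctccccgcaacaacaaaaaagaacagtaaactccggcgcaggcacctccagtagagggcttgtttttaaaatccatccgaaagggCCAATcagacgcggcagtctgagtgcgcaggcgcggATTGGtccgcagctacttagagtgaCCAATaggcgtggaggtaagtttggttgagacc

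The table of promoters lists 24 starts in the segment. Motifs were searched from 250 bases before to 50 after each start, and the motif shares over all 22198 promoters of the table are given beside the segment's counts. CCAAT was found in 10 of the 24 and in 34.7% of all promoters. An E2F match was found in 4 promoters of the segment, those of SLC30A1, INTS7, DTL and PPP2R5A, and in 10.7% of all. The GGAATG match to TEAD was found in 4, at CENPF, PTPN14, LPGAT1 and KCNK2, and in 12.2% of all. CRE was found at DTL and at INTS7, which face each other from opposite strands and share the same letters, and in 2.26% of all promoters. The short form TGACG was found in 7 and in 27.9% of all, and CHR in 5 and in 13.7% of all. No AP-1 match was found in these windows (4.01% of all promoters). A match is a description of letters and not a site that was shown to be bound.

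KYSE150 lists held 546453 to 629921 peaks on 24 chromosomes and had a floor of 0.0826 to 0.108 height units, and KYSE510 lists held 115761 to 135841 peaks with a floor of 0.180 to 0.217. Read numbers are not in these lists, so sequencing depth is unknown, and the floor stands in for it. Markers were counted by peaks within 1 kb of a listed start at an FDR of at most 0.05. On chromosome 1 outside the segment, 30.4 to 38.1 KYSE150 peaks per Mb passed that limit, against 43.5 to 50.6 for KYSE510. Of 7 squamous epithelial markers 5 had a listed start. KRT5 had such a peak in every library of both lines, and TP63 in none. DSG3, PERP and SFN had one in every KYSE510 library but not in every KYSE150 library. Of 6 markers of other cells 2 had a listed start, PTPRC and ALB, and neither had such a peak in any library.

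In KYSE150 most peaks of the segment rested on a background above the floor, unlike peaks elsewhere on chromosome 1. The share of segment peaks at the floor was 18.6 to 24% over the 6 KYSE150 libraries (median 20.6%), against 59.2 to 71.2% (median 68.6%) for the rest of the chromosome. In KYSE510 the shares were 5.65 to 11.4% (median 7.79%) and 12.2 to 15.2% (median 14.7%). The groups of values for segment and rest did not overlap in either line. Among 684 windows of 4 Mb with enough peaks, the median share was 70.7% in KYSE150, and 1 window had a lower share than the segment. In KYSE510 the median was 22.1% and 58 windows had a lower share. The windows lay on a fixed grid that was not cleared of the segment, and 1 of them shared most of its length with it. The KYSE150 window with the lower share may thus be the segment itself, shifted. The background of the median segment peak was 1.36 to 2.77 times the floor in KYSE150, where the median peak of the rest of chromosome 1 lay at the floor in each library. In KYSE510 the segment gave 1.75 to 2.12 times the floor and the rest gave 1.75 to 2 times. The raised background was thus a feature of the segment relative to its chromosome in KYSE150, the quantity by which it was chosen, while in KYSE510 the median peak of the segment and of the rest had about the same background.

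**Figure D1:**
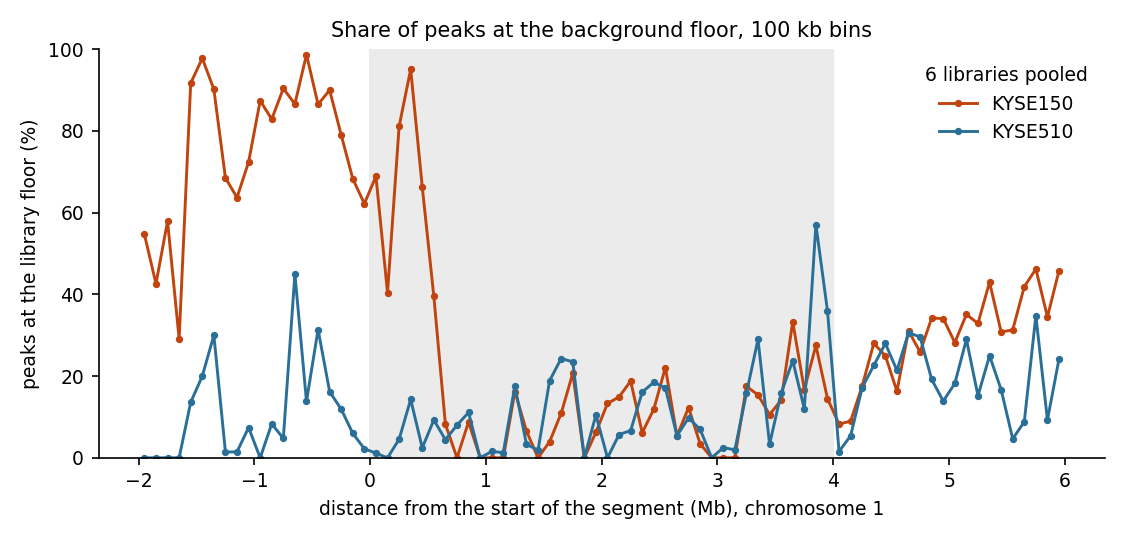
Share of peaks at the library floor (percent, vertical axis) in bins of 100 kb against distance from the start of the segment in Mb, with the peaks of 6 libraries of a line pooled; the shaded area is the segment. KYSE150 falls from 68.3% in the first 0.5 Mb to 4.99% in the third and is higher again beyond the right end; KYSE510 has no such fall and reaches 57.1% in 1 bin near the right end of the segment.

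The rise began inside the segment at one side and had no edge at the other. In bins of 0.5 Mb, with the peaks of the 6 libraries of a line pooled, the KYSE150 share at the floor was 76.8% just outside the left bound and 68.3% just inside it. It then was 14.0% in the next bin and 4.99% in the one after, between 212500001 and 213000000, where the median peak lay at 3.75 to 4.15 times the floor in the 6 libraries. The following bins gave 9.04, 13.0, 9.37 and 9.68%. The last bin of the segment gave 22% and the first bin outside it 18.0%, so the right bound does not mark a change, and the share then was 29.2, 34.2 and 40.6% over the next 1.5 Mb. On the left, bins of 25 kb showed an uneven fall around INTS7 and DTL. Between 211975001 and 212000000, 14 of 15 peaks lay at the floor (93.3%). The next bins gave 57.7, 24.2, 51.9, 28.6 and 20.7% of 26 to 33 peaks each, again pooled over the 6 libraries. A single library had 1 to 11 peaks in such a bin, and its share ran from 0 to 100%, so the order of these bins is uncertain. In the 2 bins after that, from 212125001, 0 of 14 and 0 of 12 peaks lay at the floor. In KYSE510 the 0.5 Mb bins of the segment held 3 to 25% of peaks at the floor, and no step of this kind appeared.

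The background also sets how weak a peak can be and still be listed at the p-value limit of 0.01. A peak of height 1 passes up to a background of 0.14, height 2 up to 0.42 and height 3 up to 0.82. KYSE150 had 121 to 160 peaks per Mb in the segment and 195 to 219 per Mb in the rest of chromosome 1, a lower density in each library. Peaks of height 1 made up 33.8 to 55.9% of segment peaks and 78.6 to 80.8% of the rest. With a height of at least 3 the order was the opposite, with 53.5 to 63.5 peaks per Mb in the segment and 21.5 to 25.7 in the rest. At the stricter FDR limit of 1e-05 it had 18.5 to 22.8 per Mb in the segment and 7.85 to 10.8 in the rest. KYSE510 had more peaks per Mb in the segment at each of these limits, with 65.2 to 75.2 against 52.8 to 61.5 as deposited and 22.8 to 25 against 17.2 to 19.5 at the strict FDR. Strong peaks were therefore denser in the segment than in the rest of the chromosome in both lines, and the gap was wider in KYSE150.

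Of the 2379 regions, 1561 (65.6%) were called in 1 library, 1632 in KYSE150 libraries only and 344 in KYSE510 libraries only, and 403 in both lines. All 6 KYSE150 libraries shared 104 regions and all 6 KYSE510 libraries shared 108. The regions called in all 12 libraries numbered 73, or 3.07% of members, where 1.2% of all merged regions of the genome were called in all 12. Of these 73, 38 overlapped a protein-coding gene and 12 lay within 1 kb of a listed gene start. All comparisons of height between the lines below concern these 73 regions or the gene starts.

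Peak heights in the segment fell into 3 stretches, whose bounds were set from these heights and therefore have no test. The left stretch holds the 13 regions up to 212141889, around SLC30A1, NEK2, INTS7 and DTL. The middle stretch holds 53 regions between 212179442 and 214603615, 2.42 Mb from a point 74429 bp past DTL to the start of CENPF, and the gap between the first pair of stretches is 37.6 kb. The right stretch holds the 7 regions from 214901503 onwards, around KCNK2. The median log2 ratio of mean height, KYSE150 over KYSE510, was -1.56 in the left stretch, 0.81 in the middle and -0.37 in the right one. Over 2821 such regions in the rest of chromosome 1 it was -0.93, and 12.1% of those were higher in KYSE150. In the left stretch 0 of 13 regions were higher in KYSE150, in the middle 50 of 53, and in the right 2 of 7.

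Counted by library, 24 of the 53 middle regions had every KYSE150 library above every KYSE510 library, and 0 had the reverse. In the genome 1.81% of regions called in all 12 libraries had this order. In the left stretch 11 of 13 had every KYSE150 library below every KYSE510 library, an order held by 21.8% of such regions in the genome. Since KYSE150 values chose the segment, nothing is read from these counts beyond the order itself. Over the whole segment the median log2 ratio was 0.71. The median of 678 windows of 4 Mb was -0.49, the highest was 0.86, and 4 windows were higher than the segment. Windows overlapping the segment may be among these.

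**Figure D2:**
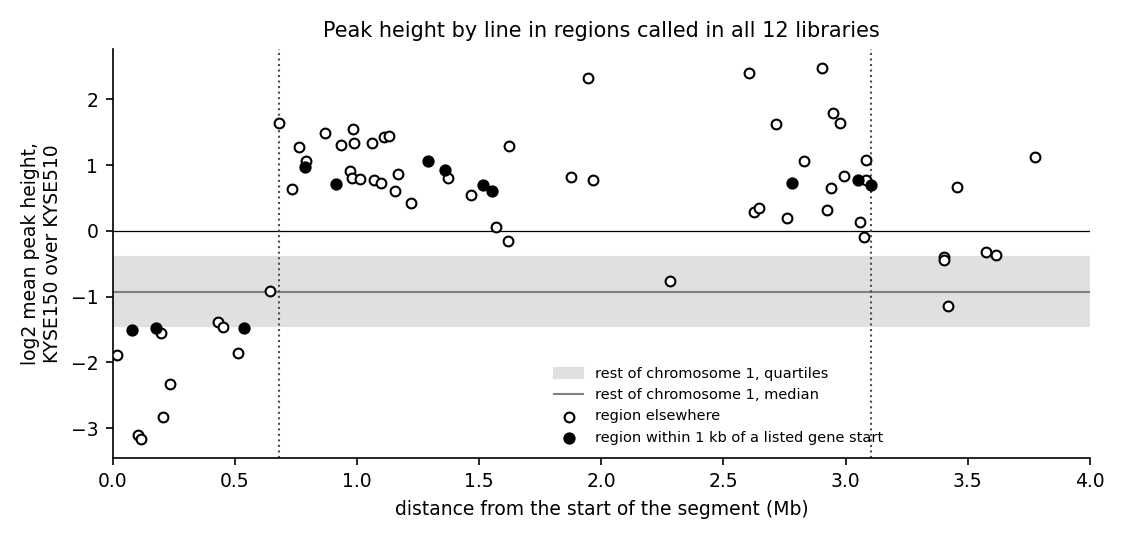
Log2 ratio of mean peak height, KYSE150 over KYSE510 (6 libraries each), for the 73 regions called in all 12 libraries, against distance from the start of the segment in Mb; filled points lie within 1 kb of a listed gene start, the grey line and band are the median and quartiles of the rest of chromosome 1, and dotted lines bound the middle stretch. The 13 left regions all lie below 0 and 50 of the 53 middle regions lie above 0.

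The step showed between neighbouring regions. The last region left of it, at chr1:212141406-212141889, had heights of 4, 3 and 2 in control and 7, 6 and 6 in silenced KYSE150 libraries. In KYSE510 it had 7, 12 and 6 in control and 6, 16 and 6 in silenced libraries. The first region right of it, at chr1:212179442-212180094, had heights of 76, 96 and 100 in control and 77, 99 and 77 in silenced KYSE150 libraries. In KYSE510 it had 19, 23 and 24 and 29, 39 and 34. All KYSE150 libraries were far above all KYSE510 libraries at the right region, and the lines overlapped at the left one. Both lie between genes.

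Heights were also compared within each library. The median height of the middle stretch was 3.62 to 4.33 times that of the rest of chromosome 1 in the 6 KYSE150 libraries and 1.06 to 1.21 times in the 6 KYSE510 libraries. For the left stretch the ratios were 0.5 to 1 in KYSE150 and 1.60 to 1.93 in KYSE510. For the right stretch they were 1.12 to 1.5 in KYSE150 and 0.625 to 1.23 in KYSE510, where the lines overlapped. The heights are not divided by the floor, but the regions had to be called in all 12 libraries, and calling depends on the background. Controls and silenced libraries overlapped in every stretch of both lines. Genome copy number was not measured in these files.

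**Figure D3:**
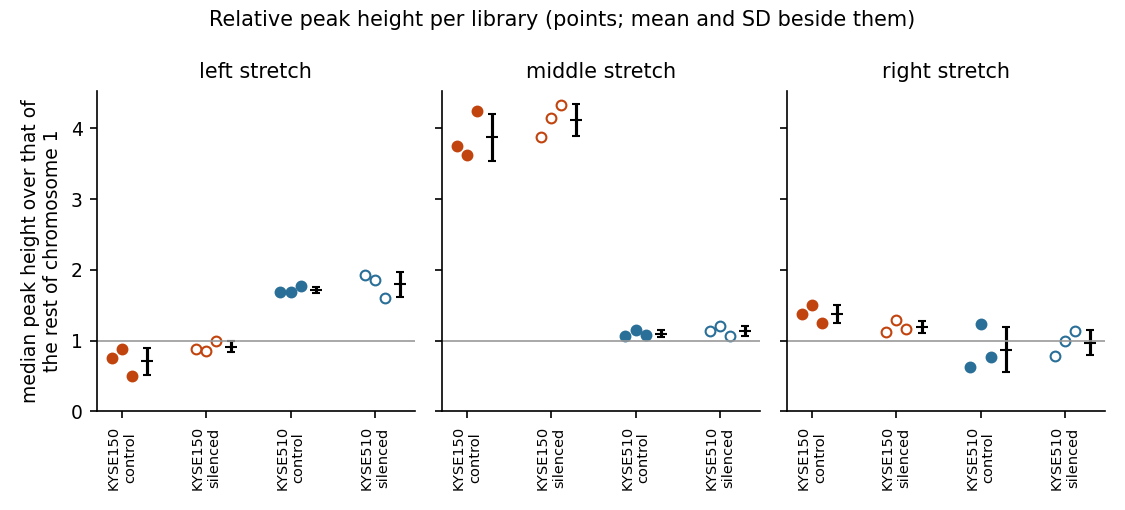
Median peak height of the left, middle and right stretches divided by that of the rest of chromosome 1, for each library, in the 4 groups; filled points are control and open points silenced libraries, with mean and SD beside them. In the middle stretch KYSE150 libraries lie at 3.62 to 4.33 and KYSE510 libraries at 1.06 to 1.21.

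The left stretch holds genes whose starts had lower heights in KYSE150 than in KYSE510. Heights are not scaled between the lines, and regions in the rest of chromosome 1 were also mostly lower in KYSE150 (median log2 ratio -0.93). Relative to that rest, the left stretch stood at 0.5 to 1 in KYSE150 and at 1.60 to 1.93 in KYSE510. NEK2 had heights of 12, 12 and 21 in control and 13, 15 and 9 in silenced KYSE150 libraries. It had 52, 35 and 35 and 38, 31 and 36 in KYSE510. INTS7, a subunit of the Integrator complex that processes small nuclear RNA, and DTL share 1 region, chr1:212034935-212035922, between their opposite starts. Its heights were 14, 12 and 14 and 14, 13 and 9 in KYSE150, and 51, 27 and 24 and 36, 36 and 37 in KYSE510. At SLC30A1, a zinc exporter of the cell membrane, heights were 13 to 25 (median 14.5) in KYSE150 and 40 to 69 (median 47.5) in KYSE510. The lines did not overlap at any of these starts. At LPGAT1, a lysophospholipid acyltransferase, heights were low in both lines, 1 to 7 in KYSE150 and 5 to 10 in KYSE510, and overlapped. The region of the left stretch with the lowest ratio lay between SLC30A1 and NEK2 at chr1:211613234-211613908, with a mean height of 6.0 ± 2.45 in KYSE150 and 53.8 ± 12.2 in KYSE510 (SD, n = 6).

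In the middle stretch mean height was higher in KYSE150 at every gene start called in all 12 libraries. PPP2R5A, a regulatory subunit of the phosphatase PP2A, had the highest start of the segment, with heights of 194, 138 and 171 in control and 168, 133 and 127 in silenced KYSE150 libraries. In KYSE510 it had 112, 73 and 82 and 85, 57 and 65, and the lines did not overlap. CENPF had 81, 46 and 101 and 65, 61 and 59 in KYSE150, and 51, 43 and 41 and 30, 34 and 55 in KYSE510, so here the ranges overlapped. PTPN14 had 61, 69 and 55 and 55, 49 and 44 in KYSE150, and 43, 27 and 31 and 27, 30 and 36 in KYSE510, without overlap. SMYD2 had 30, 21 and 25 and 24, 31 and 25 in KYSE150, and 15, 14 and 15 and 13, 21 and 16 in KYSE510, and the lines met at a height of 21.

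The other starts of the stretch with a peak in all 12 libraries had the same order. The start of VASH2 is not among them: a region over it was called in all 6 KYSE510 libraries and in no KYSE150 library. NSL1 shares its region with TATDN3, a putative nuclease read from the other strand, and heights were 15 to 23 in KYSE150 and 8 to 10 in KYSE510. FLVCR1, a transporter of haem and choline, had 59 to 83 (median 75.5) in KYSE150 and 34 to 41 (median 39.5) in KYSE510. ANGEL2, an RNA phosphatase, had 63 to 83 and 38 to 56. PACC1, a chloride channel opened by acid, had 25 to 42 and 15 to 23. NENF, a secreted protein with no entry in the promoter table, had 35 to 68 near a gene end and 14 to 26. These 6 genes showed no overlap between the lines. RPS6KC1, a kinase-like protein, had 28 to 42 and 17 to 31, and the lines overlapped.

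**Figure D4:**
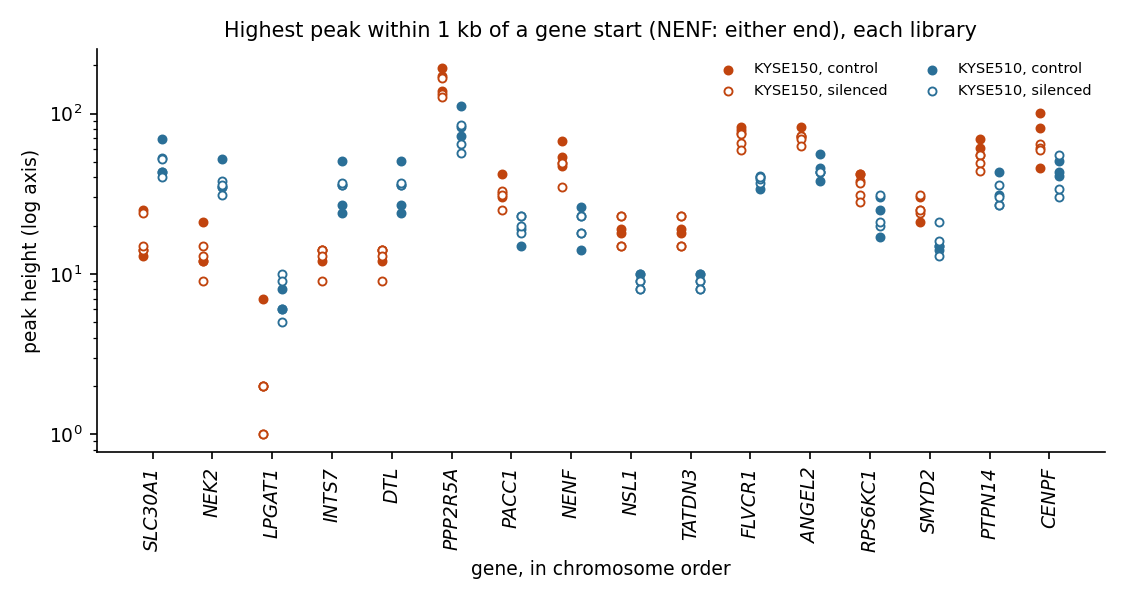
Height (log axis) of the highest peak within 1 kb of a gene start in each of 12 libraries, for the 16 protein-coding genes with such a peak in every library, in chromosome order; NENF is measured at either gene end, filled points are control and open points silenced libraries. By mean height KYSE150 lies lower from SLC30A1 to DTL and higher from PPP2R5A onwards, while the libraries of the lines overlap at LPGAT1, RPS6KC1 and CENPF and meet at SMYD2.

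The segment has 23 protein-coding genes, of which 16 had a peak in all 12 libraries within 1 kb of a listed start, or of either end for the 4 genes without a listed start. Of the 19 with a listed start 15 had one. In the genome 48.4% of 15842 such genes did. NEK2, DTL, NSL1 and CENPF, and INTS7, which was counted in the same group, had a peak in every library. Mean height in KYSE150 was lower at 3 of these 5 and higher at 2. DTL and INTS7 share 1 region, so the 3 lower ones rest on 2 regions. The 3 phosphatase and kinase genes and SMYD2 had one in every library, and 3 of 4 transporter and channel genes did. The testis genes GARIN4 and SPATA45 had one in some libraries, with heights of at most 9.

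At ATF3 the open chromatin lay inside and beside the gene and away from its listed starts. The promoter table may lack other starts of the gene, so a region named here may lie at a start. No library had a peak within 1 kb of either listed start, at 212565407 and 212615018. Within the gene 3 regions were called in all 12 libraries. The strongest, at chr1:212608095-212608999, had heights of 159, 151 and 160 in control and 135, 149 and 100 in silenced KYSE150 libraries. In KYSE510 it had 54, 46 and 52 and 54, 55 and 55, all below every KYSE150 library. The region at chr1:212595544-212596744 had a mean height of 39.7 ± 9.77 in KYSE150 and 23.8 ± 6.62 in KYSE510 (SD, n = 6). The region at chr1:212566845-212567573, past the first listed start, had 29.5 ± 6.8 and 17.2 ± 4.17. The lines overlapped at both of these.

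BATF3 had a peak near a gene end in 5 of 6 KYSE150 libraries, with heights of 12, 6 and 7 in control and 15 and 4 in silenced libraries and none in the third silenced library. In KYSE510 it had 12, 12 and 12 and 11, 11 and 12. It had no entry in the promoter table, so both gene ends were used. Its heights thus spread widely in KYSE150 and hardly at all in KYSE510, where they lay inside the KYSE150 range.

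Around PROX1 the lines differed both in which regions were called and in height. Near its gene ends KYSE150 had weak peaks of height 1 to 3 in 4 libraries and KYSE510 had none. Inside the gene, the region chr1:213987562-213988214 was called in all 6 KYSE510 libraries, with heights of 21, 19 and 21 in control and 29, 28 and 20 in silenced libraries, and in no KYSE150 library. Outside it, 48047 bp from the gene, chr1:213934629-213935104 was called in KYSE150 only, with heights of 23, 20 and 23 in control and 6, 14 and 14 in silenced libraries. A stronger region 61288 bp beyond the other end, chr1:214102798-214103387, was called in all 12, with 67, 65 and 86 and 48, 60 and 54 in KYSE150 and 8, 17 and 19 and 7, 11 and 10 in KYSE510.

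PTPN14 held the region with the highest ratio of the segment. At chr1:214404558-214405410 heights were 117, 125 and 122 and 111, 106 and 96 in KYSE150. They were 9, 18 and 15 and 17, 33 and 29 in KYSE510, a log2 ratio of 2.48. A second region inside the gene, chr1:214446681-214447533, had a mean height of 124 ± 16.2 in KYSE150 and 35.7 ± 6.44 in KYSE510 (SD, n = 6). The next highest ratios were 2.40 at the region past PROX1 and 2.33 at chr1:213443369-213443838 inside RPS6KC1, with 49.5 ± 7.2 and 9.83 ± 2.48. The lowest ratio of the middle stretch, -0.76, lay in the same gene at chr1:213779231-213779830, with 16, 20 and 16 and 9, 10 and 10 in KYSE150 and 31, 30 and 20 and 18, 19 and 19 in KYSE510. At the 9 regions of the middle stretch within 1 kb of a listed gene start the ratios were 0.60 to 1.07, so the widest differences lay away from listed starts.

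Ranked by fold enrichment within each library, 4 of the 5 strongest shared regions were the starts of CENPF, ANGEL2, PPP2R5A and FLVCR1, with mean percentiles of 99.6, 99.5, 99.3 and 99.2. The other was chr1:214439327-214440134 inside PTPN14, at 99.2. Fold enrichment divides height by background, and its median log2 ratio between the lines was 0.45 in the middle stretch where that of height was 0.81, against -0.38 and -0.93 in the rest of chromosome 1. Relative to the rest of the chromosome, both the heights and the background under them were higher in KYSE150 in the middle stretch. These may not be separate observations. At the CENPF start, heights of 81, 46 and 101 in control KYSE150 libraries came with backgrounds of 2.92, 2.28 and 3.58.

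Few regions were called in all 6 libraries of 1 line and in none of the other. In all 6 KYSE150 and no KYSE510 libraries 7 regions were called (0.132% of all merged regions of the genome), and in all 6 KYSE510 and no KYSE150 libraries another 7 (0.0813% of the genome's). That is 0.294% of members each way. The strongest KYSE150-only region lay in PTPN14 at chr1:214386766-214387197, with heights of 24, 26 and 28 and 27, 28 and 24. Another in the same gene, chr1:214461392-214461871, had 18, 20 and 29 and 24, 13 and 8. Of the KYSE510-only regions, 1 overlapped the start of VASH2, a tubulin carboxypeptidase, at chr1:212950121-212951030, with 22, 26 and 26 and 26, 14 and 22. Within 1 kb of that start KYSE150 had peaks of height 3 and 2 in 2 control libraries. A region 42213 bp from NENF, chr1:212488592-212488987, had 31, 24 and 22 and 25, 20 and 21 in KYSE510, inside the middle stretch where most shared regions were higher in KYSE150.

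The comparison of silenced with control libraries asks whether loss of HCP5 changed accessibility in the segment, and no difference passed a test. The background of the median segment peak over the floor, on a log2 scale, was 1.12, 0.446 and 0.467 in control and 0.593, 1.47 and 0.761 in silenced KYSE150 libraries. The means were 0.677 ± 0.382 and 0.941 ± 0.465 (SD, n = 3), a difference of 0.264 that was smaller than either SD (two-sided exact permutation p = 0.5, adjusted p = 0.9 over 4 tests). In KYSE510 the values were 0.807, 0.857 and 1.08 and 1, 1.01 and 0.813, with means of 0.915 ± 0.146 and 0.942 ± 0.112 (exact permutation p = 0.9, adjusted p = 0.9). The groups overlapped in both lines. In control replicates 2 and 3 and silenced replicates 1 and 3 of KYSE150 the median background was 0.14, the highest at which height 1 passes. Their values differed only by their floors of 0.103, 0.101, 0.0928 and 0.0826. The KYSE150 values on this scale, also those in the line difference, thus partly reflect the library floors. The smallest p that 3 libraries against 3 can give is 0.1. The change in KYSE150 minus that in KYSE510 was 0.237 (permutation over 400 relabellings, p = 0.525).

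The share of a library's peaks that lay in the segment did not separate the treatments either. In KYSE150 it was 0.0899, 0.0969 and 0.105% in control and 0.106, 0.0770 and 0.117% in silenced libraries (exact permutation p = 0.9, adjusted p = 0.9). In KYSE510 it was 0.225% in each control library and 0.226, 0.216 and 0.222% in silenced libraries (exact permutation p = 0.4, adjusted p = 0.9). The difference in means was 0.00283 percentage points in KYSE150 and -0.00415 in KYSE510. With replicate numbers as pairs the differences in share ran from -0.0199 to 0.0161 in KYSE150 (sign-flip exact permutation p = 1).

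**Figure D5:**
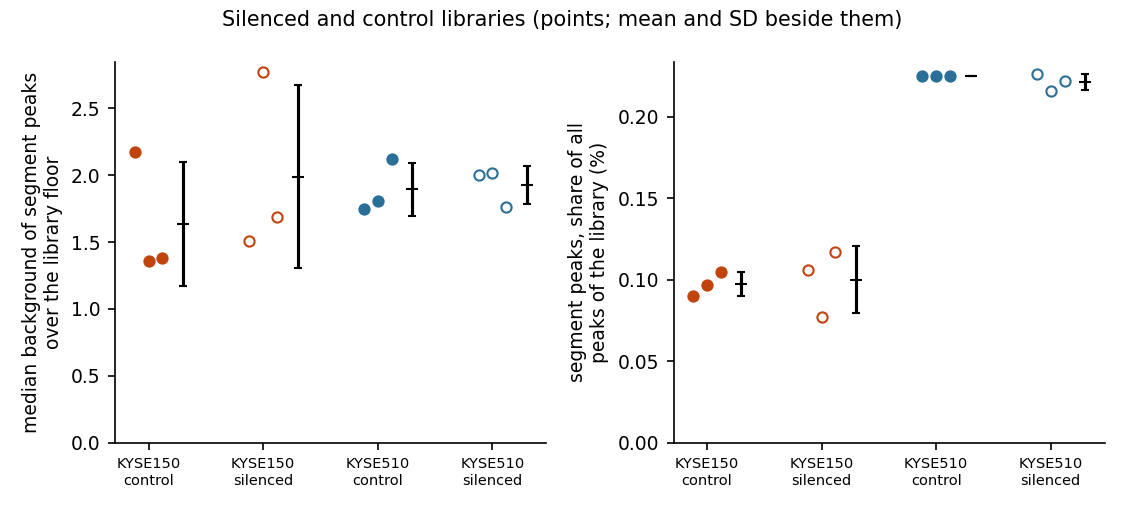
Median background of segment peaks over the library floor (left) and segment peaks as a percentage of all peaks of the library (right), for each library in the 4 groups, with mean and SD beside the points. Control and silenced libraries overlap in both lines, and silenced replicate 2 of KYSE150 has the highest background and the lowest share.

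Region by region, limma's test on ranks of fold enrichment called 0 regions in either line at an adjusted p under 0.05, in the segment and in the genome (0% of 45053 and of 48299 tested). The segment had 105 tested regions in KYSE150 and 108 in KYSE510. At an unadjusted p under 0.05, 2 were higher and 1 lower in silenced KYSE150 libraries, where 2.65 and 2.74% of all tested regions were. In KYSE510 2 were higher and 3 lower, where 3.95 and 3.35% of all were. The median change was -0.01 score units in the segment in both lines, and 0 in KYSE150 and -0.02 in KYSE510 over all regions.

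The smallest p of the segment lay in FLVCR1 in KYSE510, at chr1:212872938-212873579. Heights there were 9, 10 and 11 in control and 19, 22 and 27 in silenced libraries, and the score was 1.34 ± 0.339 higher (SE, n = 3 per group, limma adjusted p = 0.490). In KYSE150 the same place had 24, 29 and 27 and 36, 29 and 26, which overlapped. In KYSE510 the next were chr1:214261382-214262075 near SMYD2, with 30, 23 and 12 and 12, 11 and 11 (limma adjusted p = 0.638), and chr1:215188115-215188626 in KCNK2, a potassium channel, with 7, 4 and 7 and 4, 3 and 4 (limma adjusted p = 0.639). In KYSE150 the smallest p lay beside the step, at chr1:212141468-212141883, with 4, 3 and 2 and 7, 6 and 6 (limma adjusted p = 0.925). The others were the KYSE150-only region near PROX1 and one near SLC30A1 at chr1:211613254-211613757, with 3, 7 and 4 and 10, 6 and 6 (limma adjusted p = 0.925 each).

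Presence and absence by treatment gave short lists. In KYSE150 3 segment regions of 2060 had a peak in every control library but in none of the silenced ones (0.294% of all KYSE150 regions), and 9 had the opposite pattern (0.248%). In KYSE510 the counts were 4 and 4 of 766, where 0.304 and 0.546% of all KYSE510 regions were on these sides. A control-only region of KYSE150 lay in ATF3 at chr1:212579932-212580670, with heights of 7, 3 and 12 in control libraries. In KYSE510 it was called in all 6 libraries, with 6, 12 and 4 and 5, 5 and 7. The others lay near NEK2, with 7, 4 and 7, and 54707 bp past CENPF, with 6, 4 and 4. The silenced-only regions of KYSE150 with the highest percentiles lay in PTPN14, at chr1:214514439-214515004 with 5, 6 and 8, in CENPF with 2, 3 and 4, and 96913 bp past KCNK2 with 3, 3 and 1.

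In KYSE510 the strongest silenced-only region lay 15162 bp from PTPN14 at chr1:214566764-214567066, with heights of 9, 9 and 6. In KYSE150 this place was called in all 6 libraries, with 7, 15 and 5 in control and 12, 11 and 8 in silenced libraries. The next ones of KYSE510 lay in RPS6KC1, with 4, 6 and 3 and with 3, 4 and 3. The control-only regions lay near ATF3, with 6, 3 and 3, near NEK2, with 5, 3 and 4, and near SMYD2, with 4, 6 and 7. All of these 12 named regions were picked by where they were present and had heights of at most 12 in that line, so no test applies to them. None of the control-only or silenced-only regions lay within 1 kb of a listed gene start.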

How the data were processed

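ATAC-seq peak lists of 12 libraries were used, 1 per library. Per the submitters' processing notes the tools were Trimmomatic 0.36, Bowtie2 2.2.6, Picard 2.8.2, MACS2 2.1.1 and bedtools 2.25.0 with the GRCh38 build; their settings and the handling of duplicates are not given in the sources used here. Per the file headers each peak has a fold enrichment (a ratio), a pileup (its height, a signal), a p-value and an FDR (an adjusted p-value), and the authors' length in bp. The deposited p-values end at 0.01, and no value was scaled between libraries as far as the deposited lists show, so weak peaks and peak numbers move with depth, which is unknown.

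The background of a peak was computed as (height + 1) / fold enrichment - 1. Above a floor, the value held by most peaks of a library, 100% of backgrounds (to 4 digits) lay on steps of 0.02 (within 0.0004), and 100% of the p-values checked matched the Poisson tail. A peak within 0.001 of the floor was counted as at the floor. Peaks of the 24 chromosomes were merged at 1 bp overlap, over 12 libraries or over the 6 of a line, and a region took the highest peak of each library. Bounds of the 3 stretches came from the pair of breaks that best fitted the height ratios, after the values were seen. Genes and promoters came from RefSeq tables for GRCh38.p14 (matched by symbol), and NENF, BATF3, SPATA45 and PROX1 have no promoter entry there.

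Groups and replicate numbers came from the labels. Treatments were compared within a line by two-sided exact permutation tests of per-library values, with Benjamini-Hochberg adjustment over 4 tests, the line difference over 400 relabellings, and regions called in all 6 libraries by limma on normal scores of within-library ranks, adjusted over all regions and tested on simulated data. Other thresholds, scalings, merges and left-out libraries were tried, and replicate numbers were used as a block. For a check of pairing, each region's mean over the libraries of a treatment was taken from the rank scores. What remained correlated between same-numbered libraries at 0.009 to 0.049 in KYSE150 and 0.03 to 0.089 in KYSE510. These are not correlations of whole libraries. The main tests did not use the numbers as pairs. Values were reported for ATF3, BATF3, PROX1, SMYD2, PTPN14, CENPF and the cell division genes, for the 5 shared regions with the highest percentile, for up to 3 one-sided regions per line and side, and for the 3 smallest p per line; other regions named for their height ratio were chosen after their values were seen. The segment, the gene lists and the tests were chosen with earlier results of these data known. Analyses used Python 3.11.15, numpy 2.4.6, pandas 2.3.3, scipy 1.17.1, matplotlib 3.10.9, R 4.3.3 and limma 3.58.1.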

Additional observations from a re-analysis of the deposited data

How the results depend on the processing

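No treatment difference passed its test under any setting tried; for the tests within a line, whose smallest p is 0.1, this says nothing about stability. The change of background in KYSE150 (0.264) turned to -0.143 with 0.5 Mb less at each end and was 0.00059 to 0.485 with 1 library left out. That in KYSE510 (0.0273) was -0.00133 when divided by the chromosome 1 median, -0.0565 at an FDR of at most 0.05, -0.0231 at a height of at least 3, and -0.0268 to 0.110 with 1 library left out. The difference in share in KYSE150 (0.00283 percentage points) was -0.00565 to 0.0143 with 1 left out, and that in KYSE510 -0.00646 to -0.00169. The line difference (0.237) was -0.0267 without KYSE150 silenced replicate 2 and up to 0.458 without another library. With the replicate block the sign-flip exact permutation p was 0.75 and 1 for background in KYSE150 and KYSE510, and 1 and 0.5 for share, and 0.25 is the smallest that 3 pairs can give. With the block the line difference stayed 0.237 (sign-flip permutation p = 0.656). The rank test called 0 regions with the block and under each other setting. In the pairing check each library correlated best with the library of its own number, though weakly.

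Counts of one-sided regions moved as well. Control-only regions of KYSE150 (3) were 0 under an FDR limit of 1e-05 and 6 to 28 with 1 library left out. Silenced-only regions of KYSE150 (9) were 3 at an FDR of at most 0.05, 0 at 1e-05, 1 at a height of at least 3, and 12 to 30 with 1 left out. In KYSE510 control-only regions (4) were 2 under an FDR limit of 0.05, 0 at 1e-05, and 6 to 10 with 1 left out, and silenced-only regions (4) were 2 at 1e-05 and 4 to 16 with 1 left out. Leaving out a library loosens the rule, which then needs fewer calls. The cause of the other moves was not tested. Depth is unknown, so a peak missing from a list may lie just under the p-value limit. Whether this was more common where the background is high was not tested.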
